A study of Mus musculus with 40 samples.

Results

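The transcriptional response of Ikaros-sufficient follicular B cells to 1 day of CpG was read from 7 of the 28 RNA-seq samples of the study, which holds 40 samples over all its assays. The members were taken from the labels alone. They are 4 libraries of CpG-stimulated cells and 3 libraries of naive cells, and every gene in the deposited table was examined. The stimulated cells were FO (follicular) B cells kept in vitro with CpG for 1 day and then sorted by flow cytometry. The naive cells were naive FO B cells that were sorted directly ex vivo. Both groups came from C57BL/6 mice and shared a genotype, with the MD4 BCR-tg receptor transgene, Cd23-cre and Ikzf1(fl/+). MD4 is a B cell receptor transgene specific for hen egg lysozyme, so that nearly all B cells carry 1 receptor. Cd23-cre places Cre recombinase under control of the gene for the low-affinity IgE receptor CD23 (Fcer2a), which is active in mature follicular B cells. With 1 floxed and 1 wild-type Ikzf1 allele, these cells keep 1 functional allele, and Ikaros-sufficient here means that state and not an intact pair. For the difference between genotypes, 4 CpG and 2 naive libraries of MD4 BCR-tg Cd23-cre Ikzf1(fl/-) cells were set beside them. In an alternative, 2 naive libraries of MD4 BCR-tg Ikzf1(fl/+) cells without Cre joined naive replicate 3. With no Cre, their floxed allele is not deleted. The libraries were made from polyadenylated RNA.

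CpG stands for DNA oligonucleotides with unmethylated CG steps, which bind Toll-like receptor 9 (TLR9) in the endosome. TLR9 signals through the adaptor MyD88 to the transcription factor NF-kB and to MAP kinases, and B cells are among the few cell types in the mouse that answer CpG directly by growing, dividing and secreting cytokines. Follicular B cells are otherwise small resting cells that recirculate between blood and lymphoid follicles, hold high levels of MHC class II, and enter the cell cycle only on stimulation. Ikaros, the zinc finger transcription factor encoded by Ikzf1, restrains such responses, and the study concerned its part in B cell tolerance and Toll-like receptor signalling.

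The values were TPM, the abundance of each transcript as a share of its library after scaling for gene length. Between 12126675 and 16401941 reads had been counted to genes in the 7 libraries, as recovered from the steps of the TPM values, and genes at low TPM rested on few reads. The 50 genes with the highest TPM held 27.7, 26.1, 25.4 and 25.5% of all transcripts in CpG libraries, against 41.5, 39.7 and 34.8% in naive libraries. Library numbers place all CpG libraries in series 49, naive replicates 1 and 2 in series 36 and naive replicate 3 in series 57. No CpG library shares a series with a naive one, and no unstimulated cells kept in culture were among the groups compared. Stimulation, culture and library series therefore cannot be told apart. For that reason a gene was counted as a large change only where 3 conditions were met. They were an adjusted p below 0.05 in limma, a difference of at least 4-fold between group means of log2(TPM + 1), and the same sign against the naive libraries of series 36 and of series 57. The naive means of these series differed by 4-fold or more in 60 of the 10527 genes tested (0.57%). The sign condition removed 0 genes. Both naive series were set against the same series 49 libraries, so no condition separates a shift of series 49 or of culture. Naive replicate 2 came from a female and the other 6 libraries from males, by Xist and Y-linked transcripts. Which samples came from separate animals is not stated in the labels. The p-values therefore cover sample-to-sample variation that could be technical.

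Of the 8 genes fixed as defining markers of B cells, all 8 reached 10 TPM in at least 1 library. Their summed TPM was 3783, 2854, 2843 and 2840 in CpG libraries, against 17646, 16836 and 18422 in naive libraries, and 4 of the 8 fell by 4-fold or more (Fcer2a, Cd79a, Cd79b and IGHD). T cell markers summed to between 2.86 and 11.3 TPM with CpG, against 8.89 to 39.98 TPM in naive libraries. Monocyte and macrophage markers summed to between 1.97 and 18.5 TPM with CpG, against 26.4 to 67.3 TPM in naive libraries. Neutrophil markers ranged from 0 to 125.8 TPM with CpG, against 0.145 to 95.2 TPM in naive libraries. In bulk RNA, fewer cells of a type and less RNA per cell cannot be told apart.

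By this rule 741 genes were higher and 366 lower in CpG libraries, which is 7.04% and 3.48% of the 10527 genes tested. Below, raised or rose means higher in CpG libraries than in naive ones, and lowered or fell means lower. In 1097 of these 1107 genes, the CpG and naive libraries did not overlap. The rule chose genes by the same libraries and favours such separation, so the count is no further support. The change reached 4-fold against each naive series on its own in 594 of the raised and 290 of the lowered genes, and it was at least 16-fold in 66 raised and 34 lowered genes. Without a limit on size, 43% of genes were higher and 21% lower at an adjusted p below 0.05. The median log2 difference over all genes was 0.30. TPM is a share, so a fall of abundant transcripts moves all others up. Median-ratio scaling took the median to 0.02, and the large changes then numbered 501 higher and 517 lower, so that 49.2% of large changes were higher in place of 66.9%. All 501 had also been counted as higher without scaling, and the 517 included all 366 lowered genes. Near the 4-fold limit, Ldha counted as a large change at 2.01 ± 0.09 and Farsb did not at 1.95 ± 0.17. Below, a log2 difference is that of mean log2(TPM + 1), CpG minus naive, with its standard error, from 4 CpG and 3 naive libraries. Adjusted p-values are Benjamini-Hochberg values from limma over all genes tested. On this scale the change of genes with low TPM is understated.

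Ccl3, a chemokine that draws monocytes and T cells, had the largest increase of the genes named, with 744, 545, 478 and 365 TPM in CpG libraries, against 0.301, 0 and 0.156 TPM in naive libraries. It was the most abundant chemokine transcript of CpG libraries and barely detected in naive ones, with a log2 difference of 8.82 ± 0.23 (adjusted p = 9.4e-08). Nfkbiz, which encodes the nuclear IkB protein that helps NF-kB switch on secondary response genes, had 553, 501, 443 and 440.4 TPM in CpG libraries, against 1.87, 1.39 and 7.29 TPM in naive libraries (6.97 ± 0.37, adjusted p = 9.7e-07). Naive replicate 3 was the highest naive library, and was still far below the lowest CpG library. Atf3, a stress-induced bZIP transcription factor, had 109, 139, 191 and 176 TPM in CpG libraries, against 0.662, 0.653 and 0.187 TPM in naive libraries (6.67 ± 0.22, adjusted p = 2.2e-07). Il6, the cytokine interleukin 6, had 44.1, 60.8, 101 and 85.7 TPM in CpG libraries and was at 0 in all 3 naive libraries. Set against a floor of 3 reads per naive library, its mean was at least 214-fold higher with CpG.

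Among the other genes of the 15 with the largest increase were the alkaline phosphatase gene Alpl (5.91 ± 0.29), the transcription factor gene Gfi1b (4.92 ± 0.21), the cationic amino acid transporter gene Slc7a3 (4.74 ± 0.21) and Fcrl5 (5.27 ± 0.38), a receptor of the Fc receptor-like family on B cells. Fam46c, a gene of non-canonical poly(A) polymerases, had 137, 137, 174 and 167 TPM in CpG libraries, against 3.4, 3.23 and 0.791 TPM in naive libraries, and the groups were far apart. Ccl4, a chemokine related to Ccl3, had 25.9, 50.04, 99.5 and 89.9 TPM in CpG libraries, against 3.06, 0.815 and 0 TPM in naive libraries (4.93 ± 0.55). CpG replicate 1 held the lowest and replicate 3 the highest level of Ccl4 in CpG cells. Rrm2, Mcm10, Top2a and E2f8, all linked to the cell cycle, were also among the 15 and are taken up with that program.

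Vpreb3, which encodes a small immunoglobulin-domain protein of the B lineage, had the largest decrease of the genes named, with 8.94, 2.87, 5.56 and 5.21 TPM in CpG libraries, against 867, 948 and 775 TPM in naive libraries (-7.10 ± 0.27, adjusted p = 3e-07). All CpG libraries were below 10 TPM and all naive libraries above 700. Pglyrp1, a peptidoglycan recognition protein also found in granulocytes, had 6.1, 3.44, 1.02 and 4.03 TPM in CpG libraries, against 233, 212 and 209.8 TPM in naive libraries (-5.69 ± 0.36). Neutrophil marker sums were 0, 0.251, 15.5 and 125.8 TPM in those CpG libraries, against 37.7, 95.2 and 0.145 TPM in the naive ones, and their part in the Pglyrp1 difference was not tested. Fcgrt, the neonatal Fc receptor that salvages IgG, had 2.48, 0.78, 1.36 and 1.58 TPM in CpG libraries, against 127, 117 and 121 TPM in naive libraries (-5.63 ± 0.22), with no overlap. Il9r, the receptor chain for interleukin 9, had 0.947, 0.839, 0.858 and 1.14 TPM in CpG libraries, against 59, 53.2 and 108 TPM in naive libraries (-5.18 ± 0.25). Abca1, the cholesterol efflux pump, was between 0.191 and 0.543 TPM in CpG libraries, against 26.6 to 67.3 TPM in naive libraries (-4.95 ± 0.29). Faim3, the Fc receptor for IgM, had 31, 33.2, 33.4 and 52.3 TPM in CpG libraries, against 1301, 963 and 756 TPM in naive libraries (-4.71 ± 0.22). CpG replicate 4 was the highest CpG library for Faim3, and naive replicate 3 the lowest naive one. The leukotriene-inactivating enzyme gene Cyp4f18 (-4.81 ± 0.32), the thromboxane receptor gene Tbxa2r (-4.78 ± 0.31), Pxdc1 (-4.74 ± 0.48) and Kbtbd11 (-4.63 ± 0.38) were also among the 15, and the rest belong to groups described further on.

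**Figure D1:**
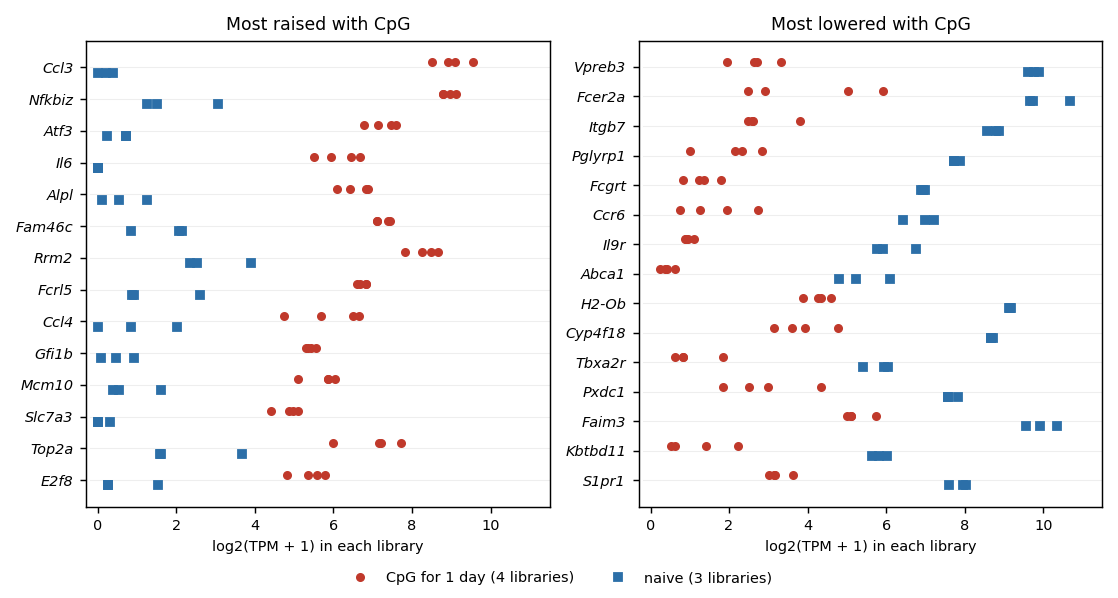
Of the genes chosen for the largest changes with CpG, 14 that rose (left) and 15 that fell (right), each as log2(TPM + 1) on the x axis in 4 CpG libraries (red circles) and 3 naive libraries (blue squares). The groups overlap in none of the genes shown, since the rule that chose them required this. Ccl3 at the top left and Vpreb3 at the top right show the widest gaps, with log2 differences of 8.82 and -7.10.

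Of 12 receptors and chaperones of the TLR9 pathway, 0 rose and 1 fell, against 7.04% and 3.48% of all genes, with a median log2 difference of -0.78. The one that fell was Slc15a4, an endosomal transporter needed for TLR9 signalling in B cells and dendritic cells, which had 31.1, 25.2, 24.9 and 26.7 TPM in CpG libraries, against 92.2, 150.1 and 139 TPM in naive libraries (-2.17 ± 0.18, adjusted p = 8.1e-06). Tlr9 had 138, 109, 147 and 151 TPM in CpG libraries, against 212, 194 and 225 TPM in naive libraries (-0.63 ± 0.13), with no overlap, but under the 4-fold limit. Unc93b1, the chaperone that brings TLR9 to the endosome, had 753, 593, 625 and 643 TPM in CpG libraries, against 1363, 1101 and 1292 TPM in naive libraries (-0.94 ± 0.12). Of 20 adaptors, kinases and brakes, 0 rose and 1 fell, and the median was 0.17 as deposited and -0.14 after median-ratio scaling. The member that fell was Sigirr, a membrane inhibitor of TLR and IL-1 receptor signalling, with 5.95, 5.82, 6.86 and 7.03 TPM in CpG libraries, against 24.9, 28.5 and 36.1 TPM in naive libraries. The log2 difference of Sigirr was -2.04 ± 0.17 and was -1.90, under the 4-fold limit, without naive replicate 3. Pik3ap1, the adaptor BCAP, had 379, 357, 496 and 432 TPM in CpG libraries, against 239, 224 and 285 TPM in naive libraries (0.73 ± 0.14).

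Among 13 NF-kB subunits and IkB proteins, Nfkbiz was the 1 that rose and 0 fell, against 7.04% and 3.48% of all genes. The median of the list was 0.22 as deposited and -0.11 with median-ratio scaling. Nfkbia, the IkB-alpha inhibitor, had 608, 517, 608 and 605 TPM in CpG libraries, against 416, 599 and 503 TPM in naive libraries, and the groups overlapped. Nfkb2, the precursor of p52, had 133, 126, 117 and 124 TPM in CpG libraries, against 247, 332 and 411 TPM in naive libraries (-1.36 ± 0.16), below the 4-fold limit, and the file marks it as sharing bases with another gene model.

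Of 25 cytokine and chemokine genes, 14 passed the filter of 1 TPM in at least 3 libraries, and 5 rose while 3 fell. Besides Ccl3, Ccl4 and Il6, the raised genes were Il10 and Tnf. Il10, an anti-inflammatory cytokine made by activated B cells, had 3.53, 4.06, 21.9 and 13 TPM in CpG libraries, against 0, 0.165 and 0 TPM in naive libraries (3.14 ± 0.53, adjusted p = 0.00066). CpG replicates 3 and 4 were the higher ones and replicates 1 and 2 the lower ones, and every CpG library was above every naive one. Tnf, tumour necrosis factor, had 52.8, 47.8, 27 and 35.6 TPM in CpG libraries, against 6.69, 2.54 and 8.73 TPM in naive libraries (2.66 ± 0.36). The 2 lymphotoxin genes, whose products organise lymphoid follicles, went the other way. Ltb had 93.4, 56.7, 40.1 and 49.6 TPM in CpG libraries, against 2301, 2976 and 2764 TPM in naive libraries (-5.52 ± 0.25, adjusted p = 5.4e-07), and Lta had a log2 difference of -2.47 ± 0.38. The file marks both as overlapping another gene model. Ccl5, a chemokine that T and NK cells express strongly, had 0.29, 0.464, 8.4 and 7.87 TPM in CpG libraries, against 37.6, 37.5 and 3.95 TPM in naive libraries, and the groups overlapped. NK and cytotoxic cell markers summed to between 3.14 and 6.98 TPM in CpG libraries, against 16.7 to 47.3 TPM in naive libraries, with naive replicate 3 the lowest naive library as it was for Ccl5. Their part in the Ccl5 difference was not tested. Without CpG replicate 1, 2 genes of the list fell in place of 3.

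The promoter of Il6 is shown because, of the genes looked up for display, it alone held a kB match. The others were Nfkbiz, Ccl3, Ccl4, Tnf and Il10. The Il6 transcript was found only in CpG libraries, and NF-kB is known to act on the gene. A kB motif was searched as GGGANTTTC on both strands in the 250 bases before each gene start, in RefSeq promoters of build GRCm38.p6. It was found in 4 of the 19 cytokine and chemokine genes with a promoter sequence (21.1%), against 299 of 27025 genes in the table (1.11%). The 4 were Csf1, Cxcl9, Il6 and Ltb. Of the raised genes in the list, Il6 alone was among them, and Ltb fell. In the list of NF-kB subunits and IkB proteins, 2 of 10 genes with a promoter sequence held the motif (20%). They were Nfkb2 and Nfkbia, and neither was a large change. In the stretch of the Il6 promoter from 84 to 1 bases before the start (chr5:30013030-30013113, plus strand), capitals mark the match.
Il6: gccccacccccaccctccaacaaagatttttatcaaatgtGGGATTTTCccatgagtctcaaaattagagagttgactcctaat
A match is a description of letters and not evidence of binding.

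Activation markers moved in both directions. Of 23 genes for activation and costimulation, 18 were tested, 2 rose and 3 fell, against 7.04% and 3.48% of all genes. Cd44, an adhesion receptor for hyaluronan raised on activated lymphocytes, had 148, 167, 176 and 203 TPM in CpG libraries, against 14.8, 16.9 and 17.2 TPM in naive libraries (3.33 ± 0.13, adjusted p = 3.4e-07). Il2ra, the IL-2 receptor alpha chain, had 2.08, 2.59, 12.2 and 7.79 TPM in CpG libraries, against 0.242, 0.486 and 0.39 TPM in naive libraries, highest in CpG replicates 3 and 4. The log2 difference of Il2ra was 2.13 ± 0.47, but 1.75 without CpG replicate 3, 1.94 without CpG replicate 4 and 1.97 with median-ratio scaling. The 3 that fell were Slamf1 (-2.76 ± 0.26), an adhesion and signalling receptor, Icosl (-2.36 ± 0.18), the ligand of the T cell costimulator ICOS, and Cd200 (-2.23 ± 0.31), an inhibitory ligand. Without naive replicate 3, the log2 difference of Cd200 was -1.90. Cd69, an early activation antigen that retains lymphocytes in tissue, had 57.8, 87.3, 128 and 116 TPM in CpG libraries, against 18.5, 22.9 and 42.1 TPM in naive libraries (1.79 ± 0.33), without overlap but short of 4-fold. Cd86, a ligand of CD28, had 2.00, 3.69, 4.39 and 5.87 TPM in CpG libraries, against 9.78, 10.9 and 13.6 TPM in naive libraries (-1.37 ± 0.28).

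Genes of MHC class II presentation fell almost throughout. Of 12 genes, 11 fell and 0 rose, with a median log2 difference of -3.69 (-4.02 with median-ratio scaling), against 0.30 over all genes. The summed TPM of the list was 9124, 6649, 6150 and 7424 in CpG libraries, against 95674, 94665 and 87194 in naive libraries. H2-Aa, the alpha chain of I-A, had 1338, 1001, 864 and 1122 TPM in CpG libraries, against 18920.2, 18083 and 15358 TPM in naive libraries (-4.02 ± 0.17, adjusted p = 4e-07). H2-Ab1, its partner beta chain, had 1542, 978, 988 and 1180.4 TPM in CpG libraries, against 16334, 16277 and 16146 TPM in naive libraries (-3.82 ± 0.17). H2-Eb1, the beta chain of I-E, had 697, 607, 500.5 and 789.8 TPM in CpG libraries, against 10365, 10006 and 8479 TPM in naive libraries (-3.90 ± 0.17). The mean of H2-Aa was 16.1-fold lower with CpG, and no CpG library came near a naive one for any of these chains. H2-Ob and H2-Oa encode H2-O, which inhibits the peptide-loading catalyst H2-M in B cells. H2-Ob had 18.3, 13.8, 19.2 and 23 TPM in CpG libraries, against 554, 569.8 and 572 TPM in naive libraries (-4.87 ± 0.16), and H2-Oa, marked in the file as overlapping another gene model, changed by -4.57 ± 0.21. The log2 difference was -3.74 ± 0.16 for H2-DMa, a subunit of H2-M. Ciita, the master activator of class II transcription, had 26.4, 17.8, 21.2 and 23.2 TPM in CpG libraries, against 233, 222 and 403 TPM in naive libraries (-3.59 ± 0.22). The cathepsin S gene Ctss, whose product trims the invariant chain, changed least among the 11 (-2.11 ± 0.13). March1, a ubiquitin ligase that removes class II from the surface, was the member without a large change (-0.98).

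Class II promoters carry a conserved CCAAT-type element, the Y box, and 2 of them are shown since the genes they belong to fell together. H2-Ab1, which fell as well, was also looked up and gave no match to the letters searched. The letters CTGATTGG were searched on both strands, and were found in 3 of 8 genes of the list with a promoter sequence (H2-Aa, H2-Eb1 and H2-Oa, 37.5%), against 1198 of 27025 genes (4.43%). Capitals mark the match, with chr17:34287827-34287914 on the minus strand for H2-Aa and chr17:34305765-34305852 on the plus strand for H2-Eb1 (RefSeq, GRCm38.p6).
H2-Aa: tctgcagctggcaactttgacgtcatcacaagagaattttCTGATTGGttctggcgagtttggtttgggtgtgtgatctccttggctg
H2-Eb1: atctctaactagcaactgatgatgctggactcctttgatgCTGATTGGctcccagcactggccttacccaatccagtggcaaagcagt

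Surface genes of follicular B cells fell as well. Of 17 members, 7 fell and 0 rose (12 fell with median-ratio scaling), and the median was -1.85. Fcer2a, the gene for CD23 and the one whose control elements drive Cre here, had 59.4, 31.4, 4.61 and 6.59 TPM in CpG libraries, against 850.4, 802 and 1638 TPM in naive libraries (-5.93 ± 0.76, adjusted p = 0.00012). CpG replicates 3 and 4 were lower than replicates 1 and 2, and naive replicate 3 was the highest of all. Cr2, complement receptor 2, was between 4.32 and 9.41 TPM in CpG libraries, against 48.7 to 95 TPM in naive libraries (-3.11 ± 0.28), and Cd55, which limits complement on the cell surface, was between 4.76 and 7.001 TPM in CpG libraries, against 85.5 to 183 TPM in naive libraries (-4.09 ± 0.26). The signalling chains of the B cell receptor, Cd79a and Cd79b, changed by -2.93 ± 0.17 and -2.28 ± 0.14. Il4ra (-2.18 ± 0.15) and Cd37 (-2.16 ± 0.19) made up the 7. In the list of 22 BCR signalling genes, 0 rose and 3 fell, namely both CD79 genes and Dok3, an inhibitory adaptor, which had 28.8, 13.3, 20.2 and 21 TPM in CpG libraries, against 253, 249.5 and 324 TPM in naive libraries (-3.70 ± 0.23).

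Of 16 homing receptors and integrins, 9 fell and 1 rose, which was Cd44. The median was -3.21. Itgb7, the beta7 integrin chain for gut homing, had 12.9, 5.12, 4.53 and 4.98 TPM in CpG libraries, against 379, 470.1 and 441 TPM in naive libraries (-5.88 ± 0.30, adjusted p = 8.1e-07). S1pr1, the receptor by which lymphocytes leave lymphoid organs along sphingosine 1-phosphate, had 11.3, 7.08, 7.78 and 8.02 TPM in CpG libraries, against 262, 245 and 194 TPM in naive libraries (-4.63 ± 0.18). Ccr6, a chemokine receptor of naive and memory B cells, had 5.62, 2.84, 0.67 and 1.38 TPM in CpG libraries, against 125, 84.8 and 148 TPM in naive libraries (-5.21 ± 0.43). No CpG library came near a naive one in these genes. Gpr183, the oxysterol receptor that places B cells at follicle edges, had 6.06, 4.19, 4.55 and 3.86 TPM in CpG libraries, against 88.5, 114 and 108 TPM in naive libraries (-4.21 ± 0.17). Cxcr5, the receptor for follicle entry, was between 80.2 and 108 TPM in CpG libraries, against 593 to 703 TPM in naive libraries (-2.80 ± 0.12). S1pr4, Cxcr4 and Cnr2 fell as well. Ccr7, the receptor for T cell zones, had a log2 difference of -0.37, short of a large change.

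Quiescence genes fell in 8 of 17 cases and rose in 0, with a median of -1.66. Klf2, a Kruppel-like factor that keeps lymphocytes resting and activates S1pr1 in T cells, had 113, 53.7, 62.4 and 65.3 TPM in CpG libraries, against 1024, 1370.2 and 1064 TPM in naive libraries (-3.9998 ± 0.24, adjusted p = 1.5e-06). Tsc22d3, the glucocorticoid-induced leucine zipper, had 23.3, 14.8, 22.4 and 17.6 TPM in CpG libraries, against 161, 449 and 436 TPM in naive libraries (-3.97 ± 0.34). Pik3ip1, an inhibitor of PI3 kinase, had 2.26, 2.25, 2.55 and 2.68 TPM in CpG libraries, against 31.8, 53.5 and 46.7 TPM in naive libraries (-3.68 ± 0.20). The groups did not overlap in these 3 genes. Txnip, an inhibitor of glucose uptake, changed by -3.84 ± 0.17 and is marked as overlapping another gene model. Ddit4, an inhibitor of mTORC1, changed by -2.86 ± 0.23. The antiproliferative genes Btg1 and Btg2 and the factor gene Klf4 completed the 8.

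Of 18 B lineage transcription factors, 1 fell and 0 rose, against 3.48% and 7.04% of all genes, with a median of -0.43. Ikzf3, which encodes the Ikaros relative Aiolos, had 66.8, 57.7, 46.5 and 50.7 TPM in CpG libraries, against 191, 186 and 373 TPM in naive libraries, and the log2 difference of Ikzf3 was -2.09 ± 0.24 but -1.76 without naive replicate 3. Ikzf1 itself had 172, 135, 149 and 140.05 TPM in CpG libraries, against 136, 120.2 and 146 TPM in naive libraries, with overlapping groups (0.15 ± 0.12, adjusted p = 0.3). Spib (-1.80 ± 0.17) and Irf8 (0.21 ± 0.11), factors of the B and dendritic cell lineages, were the most abundant of the list without a large change. Ikzf1 and Irf8 turned to -0.17 and -0.12 with median-ratio scaling.

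Immediate early genes, which answer receptor signals within minutes, were measured 1 day after CpG was added. Of 21, 15 were tested, 1 rose and 3 fell, against 7.04% and 3.48% of all genes. Atf3 was the one that rose. Egr3 had 1.09, 1.13, 0.394 and 0.738 TPM in CpG libraries, against 38.9, 14.3 and 18 TPM in naive libraries (-3.64 ± 0.33), Ier5 had 73, 56.9, 51.8 and 46.8 TPM in CpG libraries, against 258, 354 and 317 TPM in naive libraries (-2.42 ± 0.17), and Klf6 was between 7.63 and 13.7 TPM in CpG libraries, against 41 to 53.3 TPM in naive libraries (-2.04 ± 0.20). Without naive replicate 3 the log2 difference of Klf6 was -1.94, and without CpG replicate 2 it was -1.89.

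**Figure D2:**
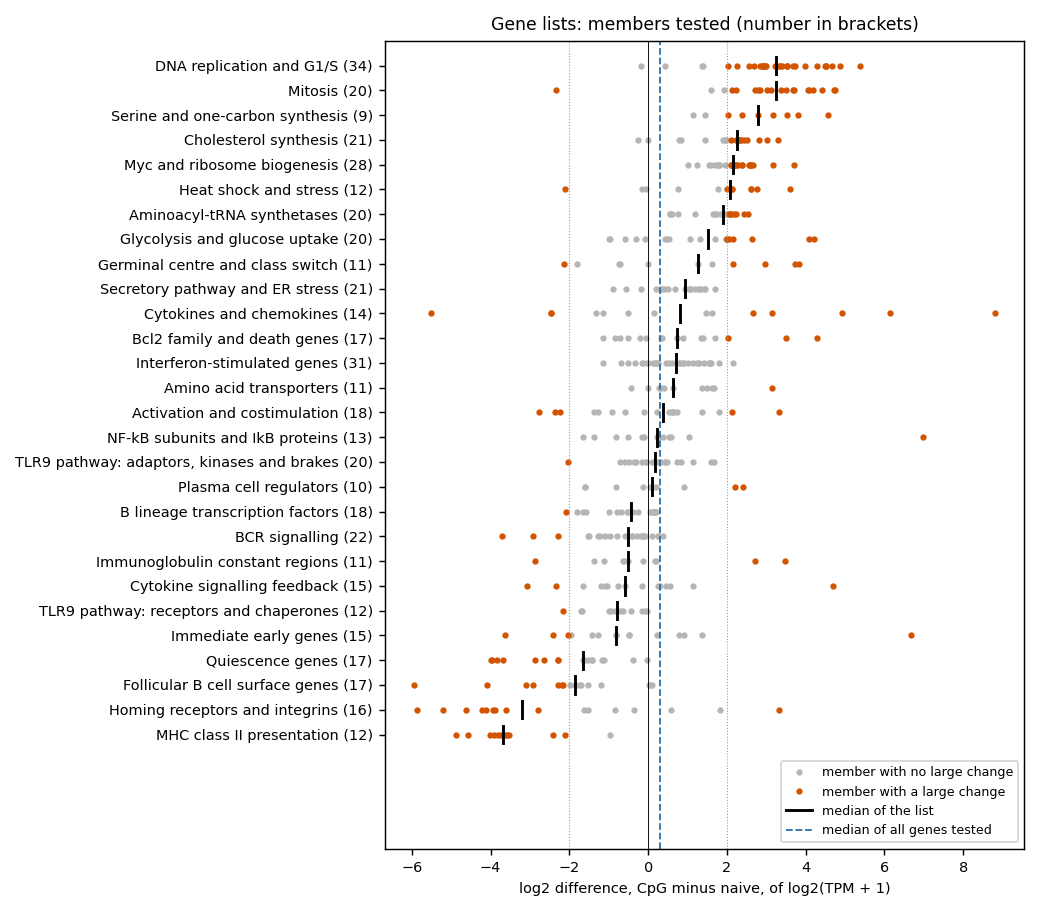
Log2 difference (CpG minus naive, x axis) of every tested member of 28 gene lists, ordered by median, with the number tested in brackets. Orange points are large changes, grey points the rest, black bars the list medians and the dashed line the median of all genes, 0.30. DNA replication and mitosis lie at the top with medians of 3.25 and 3.24, and MHC class II presentation lies at the bottom with -3.69.

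Of 28 genes for Myc and ribosome biogenesis, 18 rose and 0 fell, with a median of 2.16. After median-ratio scaling 9 rose. Myc, the transcription factor that drives growth, had 185, 217, 233 and 189 TPM in CpG libraries, against 46.9, 46.1 and 48.2 TPM in naive libraries (2.10 ± 0.11, adjusted p = 1e-06). The groups were tight and apart, but the log2 difference of Myc was 1.78, under the limit, with median-ratio scaling. Srm, spermidine synthase, had 853, 805, 835 and 744 TPM in CpG libraries, against 63.9, 62.7 and 57.9 TPM in naive libraries (3.70 ± 0.10, adjusted p = 9.4e-08). Odc1, the first enzyme of polyamine synthesis, had 249.9, 308, 270.2 and 270.5 TPM in CpG libraries, against 64, 39.3 and 29.9 TPM in naive libraries (2.67 ± 0.22). Npm1, a nucleolar chaperone of ribosome assembly, had 489, 957, 629 and 712 TPM in CpG libraries, against 81.2, 52.1 and 95 TPM in naive libraries (3.18 ± 0.25). Nop16 (2.60 ± 0.11) and Dkc1 (2.60 ± 0.23), 2 further nucleolar proteins, were also among the 18.

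DNA replication had the highest median of all lists, 3.25, and 30 of the 34 tested genes rose while 0 fell. With median-ratio scaling 28 rose. Rrm2, the regulated subunit of ribonucleotide reductase, had 227, 306, 359 and 406 TPM in CpG libraries, against 13.9, 4.09 and 4.81 TPM in naive libraries (5.39 ± 0.36, adjusted p = 2.6e-06). Mcm10, a replication initiation factor, had 33.5, 57.2, 57.2 and 64.2 TPM in CpG libraries, against 2.04, 0.462 and 0.318 TPM in naive libraries (4.87 ± 0.33). Cdc6, which loads the MCM helicase onto origins, had 27.6, 48.5, 39.5 and 48.8 TPM in CpG libraries, against 1.62, 0.297 and 0.236 TPM in naive libraries (4.67 ± 0.31). Naive replicate 1 was the highest naive library in all 3 and lay far below the CpG libraries. Tyms, thymidylate synthase, changed by 4.52 ± 0.25, and Uhrf1, which maintains DNA methylation through replication, by 4.52 ± 0.26. The helicase subunits Mcm2 to Mcm7 gave log2 differences from 2.84 in Mcm2 to 3.53 in Mcm3. Ccnd2, cyclin D2, which takes B cells out of G0, had 243, 244, 404 and 378 TPM in CpG libraries, against 40.5, 42 and 32.2 TPM in naive libraries (2.99 ± 0.21). The members without a large change were Ccnd3, Cdk2, Cdt1 and E2f2, and Ccnd1 did not pass the filter. E2f8, a repressor of the E2F family outside the list, had 27, 39.8, 47.2 and 53.8 TPM in CpG libraries, against 1.9, 0.204 and 0.201 TPM in naive libraries (4.69 ± 0.35).

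Of the 28 genes of this list with a promoter sequence, 9 held an E2F motif (32.1%), against 583 of 27025 genes (2.16%). The letters searched were TTTCCCGC, TTTCGCGC, TTTGCCGC and TTTGGCGC on both strands in the 250 bases before the start. The 9 were Cdc25a, Cdc6, Cdk2, E2f3, Mcm5, Mcm6, Mcm7, Pola1 and Uhrf1. Of these, 8 rose by 4-fold or more and Cdk2 did not (1.38). In Mcm5 and Mcm6, 2 matches on opposite strands overlap in the stretch in capitals, and Cdc6 has a single match. The stretches are chr8:75109316-75109403 (plus strand), chr1:128359768-128359855 (minus strand) and chr11:98907973-98908060 (plus strand) of GRCm38.p6, from RefSeq.
Mcm5: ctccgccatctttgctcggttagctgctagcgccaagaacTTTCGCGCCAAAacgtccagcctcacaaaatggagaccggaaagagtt
Mcm6: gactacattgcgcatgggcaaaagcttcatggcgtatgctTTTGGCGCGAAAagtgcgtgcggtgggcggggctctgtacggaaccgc
Cdc6: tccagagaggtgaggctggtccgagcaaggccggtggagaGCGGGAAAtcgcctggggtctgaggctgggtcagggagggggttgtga

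Mitosis genes rose in 17 of 20 cases and fell in 1, with a median of 3.24. Top2a, the topoisomerase of dividing cells, had 62.3, 148, 142 and 211 TPM in CpG libraries, against 11.7, 2.02 and 2.06 TPM in naive libraries (4.73 ± 0.55, adjusted p = 6.5e-05). Bub1b, a spindle checkpoint kinase, had 67.8, 80.3, 83.9 and 92.3 TPM in CpG libraries, against 5.12, 2.46 and 1.58 TPM in naive libraries (4.43 ± 0.27). Cdk1, the mitotic kinase, had 30.2, 45.7, 59 and 68.8 TPM in CpG libraries, against 4.32, 1.2 and 0.777 TPM in naive libraries (4.17 ± 0.40). CpG replicate 1 was the lowest CpG library and naive replicate 1 the highest naive one in these 3 genes. The same order held for the mean of the list, which was 4.13, 4.75, 5.05 and 5.32 on the log2(TPM + 1) scale in CpG libraries, against 2.51, 1.48 and 1.37 in naive libraries. Plk1 (4.08 ± 0.57) and Ccna2 (4.72 ± 0.49), a mitotic kinase and cyclin A2, rose as well. Ccnb2, cyclin B2, counted as a large change although naive replicate 1, at 16.1 TPM, exceeded CpG replicates 1 and 2. The one member that fell was Cdc25b, a phosphatase that activates cyclin-dependent kinases, with 10.1, 9.46, 11 and 12.7 TPM in CpG libraries, against 50.3, 71.1 and 55.8 TPM in naive libraries (-2.34 ± 0.17). Only 1 of 16 mitosis genes with a promoter sequence, Cdk1, held an E2F motif as spelled above (6.25%).

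**Figure D3:**
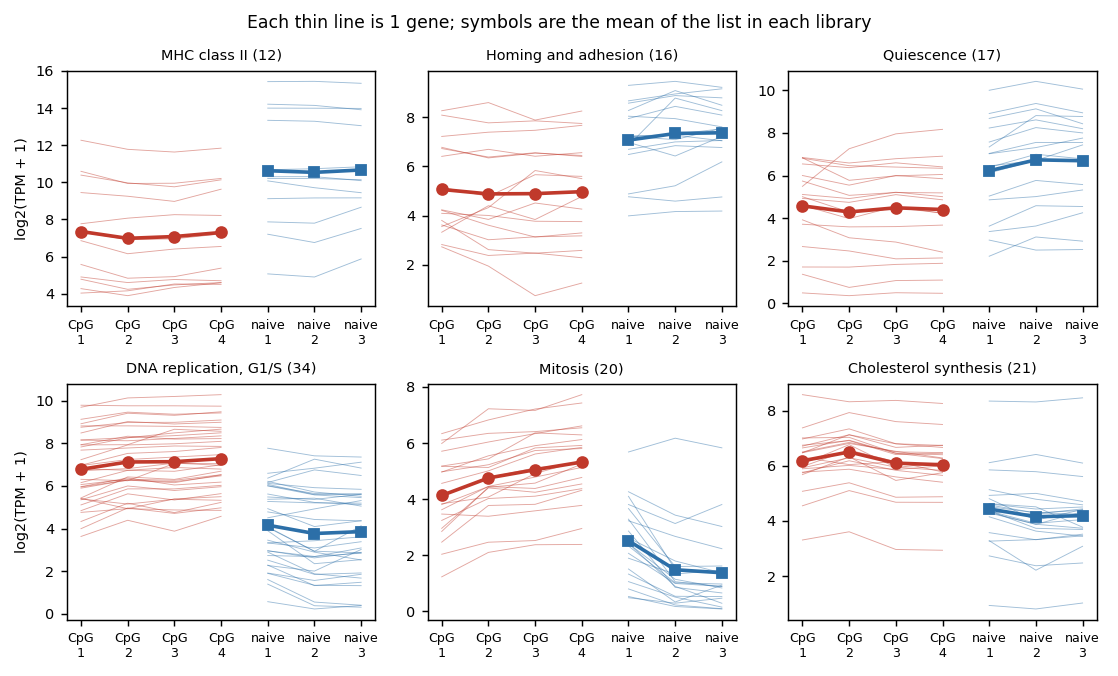
Level of each tested gene (thin lines) and the list mean (thick line with symbols) on the log2(TPM + 1) scale in 4 CpG libraries (red) and 3 naive libraries (blue), for 6 lists. Lines join the same gene across libraries and stand for no order among replicates. MHC class II, homing and quiescence means were lower in all CpG libraries than in all naive ones, and those of DNA replication, mitosis and cholesterol synthesis were higher.

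Metabolic genes rose in several groups. Of 9 serine and one-carbon genes tested, 7 rose and 0 fell, with a median of 2.79. Shmt1, the cytosolic serine hydroxymethyltransferase, had 129, 245, 177 and 232 TPM in CpG libraries, against 11.7, 5.83 and 4.9 TPM in naive libraries (4.58 ± 0.30, adjusted p = 2.5e-06). Psat1, of serine synthesis, had 139, 251, 216 and 280.3 TPM in CpG libraries, against 21.8, 12 and 11.3 TPM in naive libraries (3.805 ± 0.28), and Mthfd2, a mitochondrial folate enzyme, had 154, 221, 259.8 and 250.3 TPM in CpG libraries, against 17.2, 19.7 and 16.7 TPM in naive libraries (3.54 ± 0.18). Every CpG library exceeded every naive one. Shmt2 (3.17 ± 0.13) and Mthfd1 (2.79 ± 0.11) followed.

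Cholesterol synthesis genes rose in 13 of 21 cases, and 0 fell, with a median of 2.25 (8 and 1.94 with median-ratio scaling). Fdps, farnesyl diphosphate synthase, had 165, 242, 193 and 179 TPM in CpG libraries, against 23.7, 21.8 and 12.7 TPM in naive libraries (3.30 ± 0.22), and Sqle, squalene epoxidase, had 124, 161, 110.2 and 106 TPM in CpG libraries, against 19.7, 12.3 and 11.9 TPM in naive libraries (3.03 ± 0.21). The list mean was highest in CpG replicate 2. Lss (2.81 ± 0.17), Hsd17b7 (2.52 ± 0.18) and Sc4mol (2.43 ± 0.17) act later in the pathway. Srebf2, the transcription factor that controls these genes, had a log2 difference of 0.01, and Abca1, which exports cholesterol, fell as described above.

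Glycolysis and glucose uptake genes rose in 6 of 20 cases, with a median of 1.52 (3 with median-ratio scaling). Hk2, hexokinase 2, had 60.1, 77.2, 85.9 and 76.5 TPM in CpG libraries, against 3.45, 3.08 and 2.69 TPM in naive libraries (4.21 ± 0.16, adjusted p = 3e-07). Slc16a1, a lactate transporter, had 102, 138, 129 and 135 TPM in CpG libraries, against 7.97, 7.16 and 4.57 TPM in naive libraries (4.09 ± 0.19). Both stood well apart from the naive libraries. Gapdh, a glycolytic enzyme with many near-identical copies in the genome, was listed at between 17.5 and 27.2 TPM in CpG libraries, against 2.36 to 3.71 TPM in naive libraries (2.63 ± 0.20), and its level is uncertain for that reason. Pgam1 (2.15 ± 0.16), Tpi1 (2.05 ± 0.15) and Ldha (2.01 ± 0.09) were near the limit, and the log2 difference of Tpi1 was 1.96 without naive replicate 3 and 1.98 without naive replicate 2 or CpG replicate 2. Of 20 aminoacyl-tRNA synthetases, 8 rose (2 with median-ratio scaling), with a median of 1.90. Lars (2.53 ± 0.21) and Iars (2.43 ± 0.16) rose most, followed by Aars (2.23 ± 0.11), Cars (2.18 ± 0.19) and Gars (2.10 ± 0.12). Of the 11 amino acid transporters tested from the list, which does not hold Slc7a3, 1 rose, against 7.04% of all genes. It was Slc7a5, the large neutral amino acid transporter, which had 164, 185, 226 and 212 TPM in CpG libraries, against 22.7, 23.4 and 17.9 TPM in naive libraries (3.15 ± 0.15). Its partner chain Slc3a2 had a log2 difference of 0.63 ± 0.14, and the glutamine transporter Slc1a5 had overlapping groups (0.32 ± 0.21).

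Heat shock and stress genes rose in 7 of 12 tested cases and fell in 1, with a median of 2.07 (4 rose with median-ratio scaling, and 5 without naive replicate 3). Hspd1, the mitochondrial chaperonin Hsp60, had 294, 394, 318 and 279 TPM in CpG libraries, against 19.3, 36.1 and 23 TPM in naive libraries (3.61 ± 0.21). Gadd45b, a stress sensor induced by NF-kB, had 315, 303, 477 and 375 TPM in CpG libraries, against 54.5, 48.8 and 53.5 TPM in naive libraries (2.77 ± 0.16). Hsp90aa1, the inducible Hsp90, had 208, 339.6, 292 and 284 TPM in CpG libraries, against 29.3, 77.1 and 37.8 TPM in naive libraries (2.62 ± 0.30), and naive replicate 2 was the highest naive library. That library also had the highest naive mean of the list, 6.22 on the log2(TPM + 1) scale, against 5.04 and 5.54 in naive replicates 1 and 3. Cdkn1a (2.62 ± 0.26), the p21 inhibitor of cell cycle kinases, was also raised. So was Hspe1 (2.13 ± 0.18), the cochaperonin of Hsp60, but the log2 difference of Hspe1 was 1.80 with median-ratio scaling. Of 17 Bcl2 family and death genes tested, 3 rose and 0 fell. Bcl2a1d (4.29 ± 0.30) and Bcl2a1b (3.51 ± 0.37) encode near-identical copies of the survival protein A1, whose reads cannot be assigned with certainty. Bcl2l1, which encodes Bcl-xL, had 36.7, 29.7, 34.4 and 35.9 TPM in CpG libraries, against 5.87, 9.25 and 7.96 TPM in naive libraries, and the log2 difference of Bcl2l1 was 2.03 ± 0.17 but 1.87 without naive replicate 1 and 1.73 with median-ratio scaling.

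Genes of cytokine signalling feedback counted 1 rise and 2 falls among 15 tested, against 7.04% and 3.48% of all genes. Pim2, a serine kinase that promotes survival, had 1499, 1203, 1128 and 1056 TPM in CpG libraries, against 43.3, 43.1 and 52.5 TPM in naive libraries (4.68 ± 0.14, adjusted p = 1.7e-07). Il6ra, the receptor chain for interleukin 6, had 3.59, 3.17, 2.17 and 1.8 TPM in CpG libraries, against 22, 24.5 and 45.9 TPM in naive libraries (-3.07 ± 0.29). Ifngr1, a chain of the interferon gamma receptor, had 43.4, 41.1, 33.3 and 33.3 TPM in CpG libraries, against 167, 216 and 196 TPM in naive libraries (-2.33 ± 0.14).

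Differentiation genes gave a mixed picture. Of 11 germinal centre and class switch genes tested, 4 rose and 1 fell. Batf, a bZIP factor needed for class switching, had 872, 802, 843 and 829 TPM in CpG libraries, against 56.9, 55.9 and 61.8 TPM in naive libraries (3.82 ± 0.09, adjusted p = 9.4e-08). Ung, a uracil DNA glycosylase, had 185, 188, 157 and 153 TPM in CpG libraries, against 15.9, 10.8 and 9.94 TPM in naive libraries (3.72 ± 0.17). Nfil3 (2.97 ± 0.25) and Msh6 (2.14 ± 0.14) rose too. Basp1 had 2.82, 3.79, 5.26 and 5.78 TPM in CpG libraries, against 46.1, 18 and 13.2 TPM in naive libraries. The log2 difference of Basp1 was -2.14 ± 0.39 but -1.64 without naive replicate 1 and -1.99 without CpG replicate 1.

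Of 10 plasma cell regulators tested, 2 rose and 0 fell, and the median was 0.09 as deposited and -0.23 with median-ratio scaling. Prdm1, which encodes Blimp-1, the repressor that starts plasma cell differentiation, had 3.59, 2.13, 10.1 and 4.4 TPM in CpG libraries, against 0.347, 0.0627 and 0.12 TPM in naive libraries. The log2 difference of Prdm1 was 2.21 ± 0.38 but 1.87 without CpG replicate 3. Zbtb32 had 3.12, 2.5, 42.7 and 21.3 TPM in CpG libraries, against 1.87, 0.666 and 0.834 TPM in naive libraries, so that CpG replicates 1 and 2 lay close to the naive libraries. The log2 difference of Zbtb32 was 2.40 ± 0.82 (adjusted p = 0.029), and it was 1.73 without CpG replicate 3. The adjusted p of Zbtb32 in limma was 0.065 without CpG replicate 4 and 0.051, 0.088 and 0.077 without naive replicates 1, 2 and 3, so that the call rests on all of these libraries. Irf4, which is needed at high level in plasma cells, had 19.1, 19.2, 41.8 and 29 TPM in CpG libraries, against 46, 44.8 and 48.3 TPM in naive libraries (-0.82 ± 0.25). None of the 21 genes of the secretory pathway and ER stress had a large change, at a median of 0.95. Hspa5, the chaperone BiP, had 704, 872, 827 and 844 TPM in CpG libraries, against 240.5, 380.5 and 371 TPM in naive libraries (1.32 ± 0.17), and Calr, calreticulin, was between 1581 and 1915 TPM in CpG libraries, against 1209.95 to 1623 TPM in naive libraries with overlapping groups.

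Among 11 immunoglobulin constant region genes tested, 2 rose and 1 fell. IGHG2b had 292, 453, 495 and 633 TPM in CpG libraries, against 101, 24.2 and 25.1 TPM in naive libraries (3.48 ± 0.47), and IGHG2a had 23.5, 41.8, 87.9 and 102 TPM in CpG libraries, against 30.2, 3.49 and 3.47 TPM in naive libraries (2.70 ± 0.73). Naive replicate 1 was the highest naive library in both, and for IGHG2a it exceeded CpG replicate 1. IGHD, the delta chain, had 174, 233, 105 and 151 TPM in CpG libraries, against 1417, 979 and 1175 TPM in naive libraries (-2.88 ± 0.24). IGHM, the mu chain, was between 7433 and 8462 TPM in CpG libraries, against 10996 to 13379.9 TPM in naive libraries (-0.63). A transgenic receptor and the endogenous locus cannot be separated in the rows of IGHD and IGHM.

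Interferon-stimulated genes differed widely among the CpG libraries. Library numbers place CpG replicates 1 and 2 side by side and replicates 3 and 4 side by side, which the labels do not call a batch. Of all genes tested, 91 (0.864%) differed by 4-fold or more between these pairs, 87 of them higher in replicates 3 and 4, and 11 of the 91 were large changes. None of the 31 interferon-stimulated genes was a large change, and the list median was 0.70. The mean of the list on the log2(TPM + 1) scale was 2.70, 4.91, 6.95 and 6.49 in CpG libraries, against 4.57, 4.84 and 4.46 in naive libraries. Thus CpG replicate 1 lay below every naive library and replicates 3 and 4 above every one. Bst2, the antiviral tetherin, had 121, 477, 1479 and 1128 TPM in CpG libraries, against 204, 254 and 173 TPM in naive libraries (1.42 ± 0.73, adjusted p = 0.12). Without CpG replicate 1, 11 of the 31 genes rose and 0 fell. With CpG replicates 3 and 4 alone 17 rose, and with replicates 1 and 2 alone 0 rose and 2 fell. Isg15 and Irf7 were chosen after their values were seen. Isg15, a ubiquitin-like protein, had 9.97, 241, 1488 and 1095 TPM in CpG libraries, against 72.9, 72.7 and 34.8 TPM in naive libraries, and Irf7, the factor that amplifies type I interferon, had 4.22, 152, 1096 and 673 TPM in CpG libraries, against 72.6, 133 and 58.1 TPM in naive libraries. Ly6e, the most abundant of the list, had 1724, 1442, 1915 and 1684 TPM in CpG libraries, against 3597, 4112 and 3493 TPM in naive libraries (-1.15 ± 0.13).

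An interferon response element was searched as TTCNNTTTC on both strands. It was found in 11 of 21 genes of the list with a promoter sequence (52.4%), against 2211 of 27025 genes (8.18%). The Isg15 promoter, shown because CpG libraries ranged so widely in this gene, held 3 matches, all within the capitals. Irf7 was looked up as well and gave no match. The stretch printed runs from 118 to 30 bases before the start (chr4:156200848-156200936, minus strand, GRCm38.p6, RefSeq).
Isg15: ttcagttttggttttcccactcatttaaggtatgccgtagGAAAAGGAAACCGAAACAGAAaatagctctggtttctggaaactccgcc

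**Figure D4:**
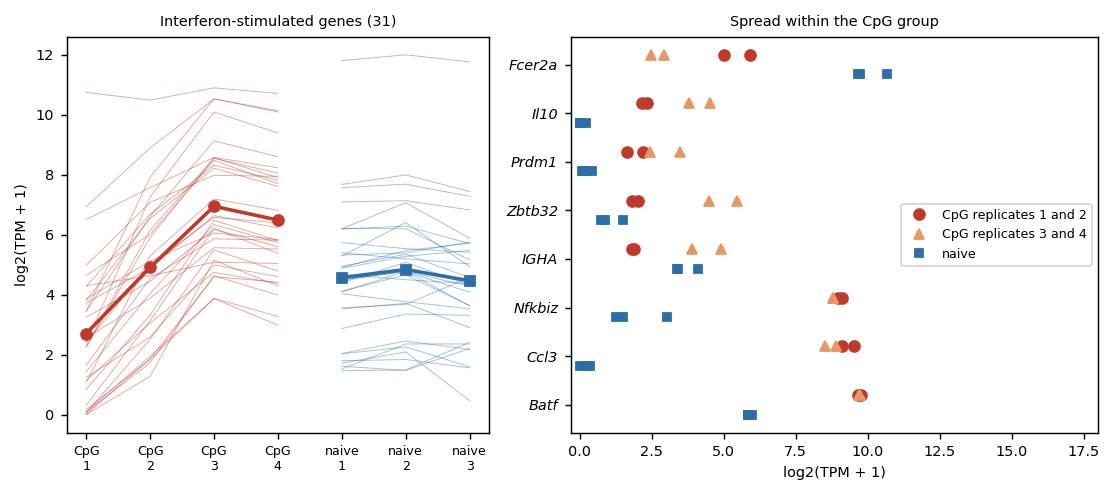
Left, the 31 interferon-stimulated genes (thin lines) and their mean (thick line) as log2(TPM + 1) in 4 CpG and 3 naive libraries, where the CpG means run between 2.70 and 6.95 and the naive ones between 4.46 and 4.84. Right, log2(TPM + 1) of 8 genes in CpG replicates 1 and 2 (red circles), CpG replicates 3 and 4 (orange triangles) and naive libraries (blue squares), with Zbtb32, IGHA and Il10 higher and Fcer2a lower in replicates 3 and 4, and Ccl3, Nfkbiz and Batf close together.

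To see where the response of Ikzf1(fl/+) cells differed from that of Ikzf1(fl/-) cells, the change from naive libraries of series 36 to CpG libraries of series 49 was compared between genotypes, in 1 limma fit over 12 libraries. Both genotypes enter with the same pair of series, and both keep Cre. The response was higher in fl/+ cells for 41 of 11081 genes (0.37%) and lower for 241 (2.17%). Among the 1107 large changes, 59 (5.33%) differed in response. Of the raised genes, 5 had a higher and 34 a lower response in fl/+ cells. Of the lowered genes, 8 had a higher response, that is a weaker fall, and 12 a lower one. The median response difference over all genes was -0.13, and -0.02 with median-ratio scaling. With a term for the block of library numbers, 100 were higher and 359 lower, and with voom on recovered reads, 35 were higher and 81 lower. The counts also moved with single libraries. The genes with a lower response in fl/+ cells numbered 352 without CpG fl/+ replicate 1, 386 without naive fl/- replicate 1 and 84 without naive fl/- replicate 2. They numbered 124 and 115 without CpG fl/- replicates 1 and 3 and 157 without CpG fl/- replicate 2. Those with a higher response numbered 69 without CpG fl/+ replicate 1, 63 without naive fl/+ replicate 1, and 18 without naive fl/+ replicate 2 or without naive fl/- replicate 2. They numbered 21 to 25 without CpG fl/+ replicate 4 or CpG fl/- replicate 1, 3 or 4.

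The genes named for the lowest relative responses of fl/+ cells had more transcript in CpG fl/- libraries. Tmem176b, a membrane protein known from immature dendritic cells, had 10.6, 6.92, 6.47 and 5.68 TPM in CpG fl/+ libraries, against 34.4 and 35.5 TPM in naive fl/+ libraries. In fl/- cells it had 301, 295, 289 and 269 TPM with CpG, against 152 and 108 TPM in naive libraries. The response difference was -3.29 ± 0.27 (limma, adjusted p = 0.00033). Its family member Tmem176a had log2 responses of -1.98 in fl/+ and 1.03 in fl/- cells (-3.01 ± 0.28). Maged1, a melanoma antigen family member, had 3.35, 2.42, 3.8 and 2.33 TPM in CpG fl/+ cells and 25.8, 26.1, 23.8 and 24.9 TPM in CpG fl/- cells, with naive levels of 3.24 and 1.99 TPM and 3.51 and 2.91 TPM in fl/+ and fl/- cells (-2.50 ± 0.26). Pdcd1, which encodes the inhibitory receptor PD-1, had 0.398, 0.128, 1.16 and 1.9 TPM in CpG fl/+ cells and 14.6, 10.3, 26.8 and 14.7 TPM in CpG fl/- cells (-3.23 ± 0.53), and all naive libraries of both genotypes were below the lowest CpG fl/- library. Cd300e, a receptor better known from monocytes, (-2.94 ± 0.30) and the histone gene Hist1h2af (-2.34 ± 0.52) completed the 6 named for a lower response in fl/+ cells. The call was lost in 10 of the 17 alternatives for Hist1h2af, 2 for Pdcd1 and 1 for Cd300e.

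In the other direction, the response of fl/+ cells was the higher one. Rgs2, a regulator of G protein signalling, had log2 responses of 0.32 in fl/+ and -1.34 in fl/- cells (1.67 ± 0.29, adjusted p = 0.013). Kmo, kynurenine 3-monooxygenase, had log2 responses of -0.59 in fl/+ and -2.13 in fl/- cells (1.53 ± 0.28). Cd2, an adhesion receptor, had 47.3, 71.5, 82.4 and 97.3 TPM in CpG fl/+ cells and 17.2, 17.4, 22.5 and 24.6 TPM in CpG fl/- cells (1.47 ± 0.33). Naive libraries had 569 and 580.1 TPM in fl/+ and 429 and 496 TPM in fl/- cells, so the log2 responses were -2.97 in fl/+ and -4.45 in fl/- cells. Lifr (2.69 ± 0.54), Fignl1 (1.69 ± 0.37) and St7 (1.47 ± 0.30) were the others among the 6. Of the 17 alternatives run, the call was lost in 11 for Fignl1, 10 for Cd2, 6 for St7, 5 for Lifr, 2 for Kmo and 1 for Rgs2. In Lifr, CpG levels were below 1 TPM in both genotypes and the naive levels differed, with 2.08 and 3.12 TPM in fl/+ and 46.4 and 11 TPM in fl/- cells.

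The shares of all genes with a response difference, 0.37% higher and 2.17% lower in fl/+ cells, stand beside the counts of the lists. In the MHC class II list 2 of 12 had a higher response in fl/+ cells, that is a smaller fall, and 0 a lower one. H2-Ob had 18.3, 13.8, 19.2 and 23 TPM in CpG fl/+ cells and 7.67, 8.02, 7.58 and 8.07 TPM in CpG fl/- cells (1.00 ± 0.21), and H2-Oa was the other (1.37 ± 0.32). In the mitosis list, 3 of 20 had a lower response in fl/+ cells and 0 a higher one, at a median of -1.33. Bub1b was one of them (-1.23 ± 0.28). The mean of this list on the log2(TPM + 1) scale was 2.51 in naive fl/+ replicate 1, against 1.48 in naive fl/+ replicate 2. In CpG fl/+ replicate 1, the lowest CpG fl/+ library, it was 4.13. The part of these libraries in the response difference was not tested. A higher response was found in 3 of 17 follicular surface genes, and a lower one in 2 of 10 plasma cell regulators, 2 of 11 germinal centre and class switch genes and 2 of 18 immediate early genes. In each of the other lists at most 1 gene passed in either direction. The 31 interferon-stimulated genes had a median response difference of 1.55, against -0.13 over all genes, although 0 passed. Their levels differed widely among CpG fl/+ libraries, as given above. Ccl3 (-0.51 ± 0.51), Il6 (0.54 ± 0.38), Nfkbiz (0.50 ± 0.34) and Myc (-0.44 ± 0.17) did not pass the threshold, with adjusted p-values of 0.63, 0.49, 0.48 and 0.19. These misses do not show that the genotypes respond alike, because the naive side of this comparison has 2 libraries in each genotype.

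**Figure D5:**
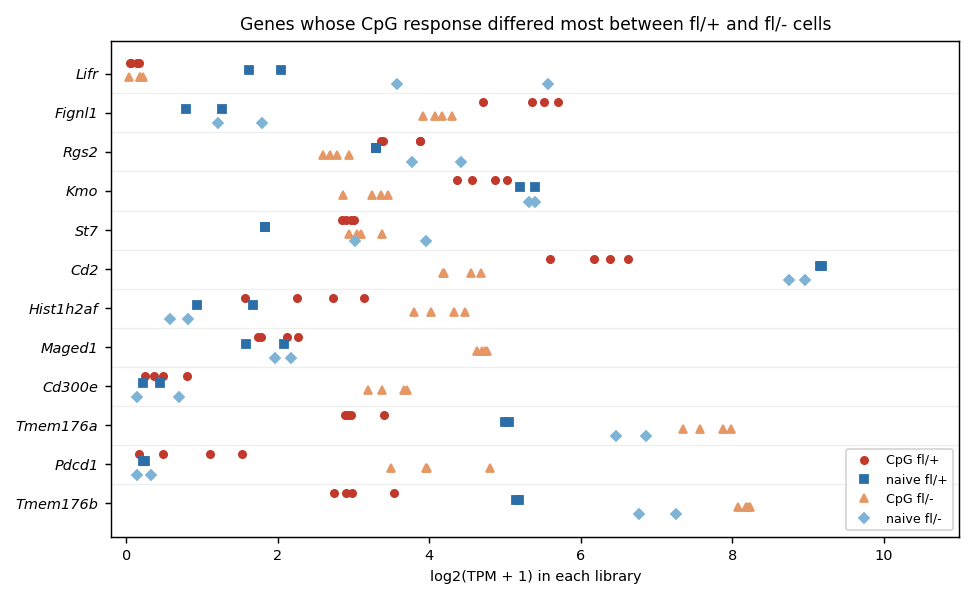
Genes with the largest difference in CpG response between genotypes, 6 per direction, as log2(TPM + 1) on the x axis in each library. They were taken among genes past the threshold, with a mean of at least 10 TPM in the highest group and no mark as overlapping or duplicated. Red circles are CpG fl/+, dark blue squares naive fl/+, orange triangles CpG fl/- and light blue diamonds naive fl/- libraries, the naive ones of series 36. In Tmem176b the CpG fl/+ libraries lie below the naive fl/+ ones while the CpG fl/- libraries lie above the naive fl/- ones, which gives the response difference of -3.29.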

How the data were processed

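RNA-seq libraries of sorted follicular B cells were compared, 4 with CpG and 3 naive, all MD4 BCR-tg Cd23-cre Ikzf1(fl/+), and for the difference between genotypes 4 CpG and 2 naive Ikzf1(fl/-) libraries. The authors deposited TPM values per gene in 1 table. Per the submitters' processing notes, TopHat 1.4.1, Bowtie, featureCounts 1.5.0, SAMtools 1.4, deepTools 3.0.1 and the genome build mm9 were used across the study, with no role or order given. Whether counting used strand is not given in the sources used here. Low values stepped in whole multiples of 1 read, and whole reads were recovered for 17368 of 17368 genes above 0 in 2 or more libraries, within a tolerance of 0.01, which gave 12126675 to 16401941 reads per library. No replicate pair agreed within sampling noise.

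Tests of group differences used log2(TPM + 1), that is a pseudocount of 1, in limma (version 3.58.1, under R version 4.3.3), with a mean-variance trend and two-sided Benjamini-Hochberg adjusted p-values. Genes entered with at least 1 TPM in 3 of the 7 libraries, and for the response difference in 2 of 12. The fit was tested on simulated data that held no effect of library series or culture, so that test says nothing about these. Only the groups compared entered each fit. Genes were named by a rule. It took the 15 largest changes per direction with a mean of at least 10 TPM, no overlap between groups, 4-fold against each naive series and no mark as an overlapping or duplicated gene model. It also took up to 5 large changes per list (or, where fewer than 2 were large, the 2 members with the highest TPM), a few fixed genes, and 6 genes per direction for the response difference. Gene lists were chosen with earlier results of these data known, so lists are described by counts and medians with no test. Alternatives were other pseudocounts, filters, scaling, naive libraries, CpG libraries, voom on recovered reads and leaving out each library. Sequences are from RefSeq promoters (GRCm38.p6), matched by symbol, and each list's promoters were searched for its own motif only. Some genes that the naming rule takes are counted but not reported here.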

Additional observations from a re-analysis of the deposited data

Results flagged for a closer look

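Among the 147 genes that the naming rule took, 6 had 1 CpG library apart from the other 3. The gap to the nearest library was then above Dixon's 95% critical value for the range of 4 libraries. Chance gives this in about 1 in 20 groups, so 6 genes are no more than chance alone would give. Replicate 1 stood apart in Cd79b at 1054 TPM, in Gars at 209 TPM, in Itgb7 at 12.9 TPM and in Tmem176a at 9.62 TPM. Replicate 4 stood apart in Faim3 at 52.3 TPM, and replicate 2 in Nfkbia at 517 TPM.

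The response to CpG differed between genotypes in limma's test of the difference itself for 22 named genes. Of these, 12 were named because they passed this same test, so that their passing is no further support. Over all genes tested, 0.37% passed as higher and 2.17% as lower in fl/+ cells. The response was higher in fl/+ cells for Lifr (2.69), Fignl1 (1.69), Rgs2 (1.67), Kmo (1.53), St7 (1.47), Cd2 (1.47), H2-Oa (1.37), H2-Ob (0.996) and Icosl (0.84). Ikzf1, the deleted gene, also counted here (0.95). It was lower in fl/+ cells for Tmem176b (-3.29), Pdcd1 (-3.23), Tmem176a (-3.01), Cd300e (-2.94), Maged1 (-2.50) and Hist1h2af (-2.34). The same held for Fam46c (-1.25), Bub1b (-1.23), Bcl2l1 (-1.18), Abca1 (-1.17), Slc16a1 (-1.003) and Batf (-0.50). Of the 12 genes named for their response difference, Tmem176b, Tmem176a and Maged1 kept the call in all 17 alternatives run.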

How the results depend on the processing

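Large changes higher with CpG numbered 694 to 825, and those lower 294 to 391, when 1 library was left out. Calls of any size then numbered 4046 to 5123 higher and 1874 to 2206 lower, and the response difference had 18 to 69 genes higher and 84 to 386 lower in fl/+ cells. Large changes lower with CpG numbered 569 with a pseudocount of 0.1 and 603 with voom. Genes of any size lower with CpG numbered 3363 with median-ratio scaling and 3625 against series 57 with libraries without Cre. Those added libraries also differ from the CpG libraries in Cre and in the state of the floxed allele. The response was higher in fl/+ cells for 100 genes with a term for the library-number block. It was lower for 158 genes with a filter of 5 TPM and 81 with voom. The cause was not tested.

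Of 120 named genes with a large change, 21 lost the call that was followed under at least 1 alternative, and 0 reversed. For genes named for their response difference, the call followed was that difference, under 17 alternatives. For the others it was the large change, under 18 alternatives. Genes without a large change that reversed with median-ratio scaling were Calr (-0.019), Ikzf1 (-0.17), Irf8 (-0.12), Nfkbia (-0.11) and Slc1a5 (-0.00013). Against series 57, the log2 difference of Slc1a5 was -0.21, and with libraries without Cre it was -0.081 and that of Ikzf1 -0.16. No paired analysis was possible because replicates were numbered in accession order and no label pairs a CpG with a naive sample. Depth limits the genes below 1 TPM, most of which were not tested.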
